A study of Mus musculus with 12 samples.

Results

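The 7 globin genes Hba-x, Hba-a1, Hba-a2, Hbb-y, Hbb-bh1, Hbb-bs and Hbb-bt were taken by their symbols from the 32285 features counted in single cells of the fetal mouse gonad. They were followed in 2 sets of barcodes, each barcode standing for a droplet. A barcode was called globin-rich when at least 30% of its UMIs (unique molecular identifiers, which count each captured RNA molecule once) fell on the 7 genes. Other cells were barcodes under that share with 1000 genes or more and no more than 10% mitochondrial UMIs. Of 103730 barcodes in 12 libraries, 1975 were globin-rich and 82285 were other cells.

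The gonads came from XX and XY embryos at about E12, of wild-type (WT), -KTS KO and +KTS KO genotype, with 2 libraries for each of the 6 groups. WT1 is a zinc finger protein made with or without the amino acids KTS. -KTS KO embryos cannot make the form without KTS and +KTS KO embryos cannot make the form with it. All mice were of a mixed B6CBAF1/JRj background, and 3 of the 4 -KTS KO libraries pooled several embryos. In the study's list of samples, XY +KTS KO replicate 1 was the furthest in tail somites and XX +KTS KO replicate 2 was among the least advanced, so that embryo, stage and library cannot be told apart within these groups. P-values given here set a difference against the spread between these libraries. The tests treat all libraries alike, whether or not they pool embryos.

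Hemoglobin is a tetramer of alpha-type and beta-type globin chains around heme. The first red cells of the mouse arise in the yolk sac as primitive erythroblasts, which enter the circulation while still nucleated and make embryonic globins: the alpha-type zeta chain from Hba-x and the beta-type chains from Hbb-y and Hbb-bh1. Definitive red cells from the fetal liver make the adult chains from Hba-a1, Hba-a2, Hbb-bs and Hbb-bt, and primitive cells also make adult alpha chains as they mature. Hbb-bh1 is known as the earlier and Hbb-y as the later of the embryonic beta genes. Blood is carried into any tissue that is dissociated, and its RNA can reach droplets of other cells.

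The alpha-type genes lie within 20.9 kb on chromosome 11 (GRCm38, from 32276400 to 32297298, plus strand) in the order Hba-x, Hba-a1, Hba-a2. The beta-type genes lie within 40.7 kb on chromosome 7 (from 103812524 to 103853216, minus strand), where transcription runs from Hbb-y through Hbb-bh1 and Hbb-bs to Hbb-bt. Each gene has 3 exons in the annotation. The 120 bases before the start of an embryonic and an adult gene of each cluster are shown here because they let the promoters of the genes that exchange places in development be read side by side. They are from RefSeq (GRCm38.p6), on the strand of the gene, and capitals mark the CACCC motif, the CCAAT motif and the TATAA motif, each on either strand. The start that RefSeq gives lay 3 to 200 bases inside the annotated gene of the positions above, so the windows of Hba-x, Hba-a1 and Hbb-bs lie within that gene model and the others overlap its first bases. Windows were matched for 6 of the 7 genes, and Hbb-bh1 is named only.
Hba-x (chr11:32276480-32276599, plus strand): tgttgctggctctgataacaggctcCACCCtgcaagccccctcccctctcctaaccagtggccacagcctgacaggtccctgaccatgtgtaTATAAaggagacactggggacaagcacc
Hba-a1 (chr11:32283552-32283671, plus strand): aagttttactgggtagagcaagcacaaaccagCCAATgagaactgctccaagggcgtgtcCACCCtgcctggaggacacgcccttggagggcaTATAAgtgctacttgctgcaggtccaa
Hbb-y (chr7:103853208-103853327, minus strand): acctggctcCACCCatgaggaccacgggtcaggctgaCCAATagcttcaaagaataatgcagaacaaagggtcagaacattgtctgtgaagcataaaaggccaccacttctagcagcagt
Hbb-bs (chr7:103827929-103828048, minus strand): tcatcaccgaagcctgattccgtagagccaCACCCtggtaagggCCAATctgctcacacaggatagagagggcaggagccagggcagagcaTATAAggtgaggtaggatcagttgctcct
Hbb-bt (chr7:103813924-103814043, minus strand): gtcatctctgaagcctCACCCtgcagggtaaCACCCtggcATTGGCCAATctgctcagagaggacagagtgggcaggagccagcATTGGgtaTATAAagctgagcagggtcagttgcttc
CACCC was found in each of the 6 windows and CCAAT in 5 of them, Hba-x being without it. TATAA was found in 5 windows and not in that of Hbb-y. Of all 32817 promoter windows of the same length, 31.7% held CACCC, 21.3% held CCAAT and 11.9% held TATAA on either strand. The GATA motif, not marked above, was found only in the windows of Hba-x and Hbb-bs, and in 29.5% of all windows. The Hbb-bt window held CACCC at 2 places and CCAAT at 3, where that of Hbb-bs held 1 of each. In the 300-base RefSeq windows from which these were taken, Hba-a1 and Hba-a2 matched at 297 of 297 bases compared at an offset of 3, and the latter is therefore not printed. The transcripts of the adult pairs are also alike. Of all stretches of 90 bases, 58.9% in Hba-a1 and 77.2% in Hba-a2 were found in the other transcript, as were 63.3% in Hbb-bs and 55.5% in Hbb-bt. The division of UMIs within either adult pair is therefore uncertain, while Hba-x, Hbb-y and Hbb-bh1 shared no such stretch with another member.

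Total UMIs per library ran from 108111924 to 147968666, and 1329 barcode sequences were found in more than 1 library. Globin-rich barcodes numbered 45 to 392 per library. Markers of red cells other than globins (at least 3 of the list with a UMI) were found in 77.6% to 97.7% of globin-rich barcodes in each library, against at most 0.444% of other cells. Markers of gonadal somatic cells were found in 3.41% to 15.6% of globin-rich barcodes, and immune markers in none. Of the globin-rich barcodes, 1228 (62.2%) passed the limits on genes and mitochondrial UMIs, since red cell droplets often held few genes. Wt1 ran from 118 to 250 CPM (UMIs per 1000000 UMIs) in other cells, and counts at the 3′ end of the transcript cannot tell its splice forms apart. At the edge of the rule, 95 barcodes had 20% to 30% of their UMIs on the 7 genes and 108 had 30% to 40%. The members of the globin-rich set were chosen by their summed level, so that level is given as a description, and the proportions among the genes are what is compared first.

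Embryonic globins made up most of the globin RNA of globin-rich barcodes in every library. Hba-x, Hbb-y and Hbb-bh1 together held 74.8% and 83.1% of globin UMIs in XX WT and 79.96% and 79.98% in XY WT. In -KTS KO the values were 80.8% and 76.6% (XX) and 77.0% and 78.5% (XY). XX +KTS KO had 83.5% and 80.7%, while XY +KTS KO held the lowest and the highest of the 12 values, 73.3% and 85.0%. The ratio of embryonic to adult UMIs accordingly ran from 2.75 to 5.66. These values count molecules captured at the 3′ end and were not scaled by transcript length.

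**Figure D1:**
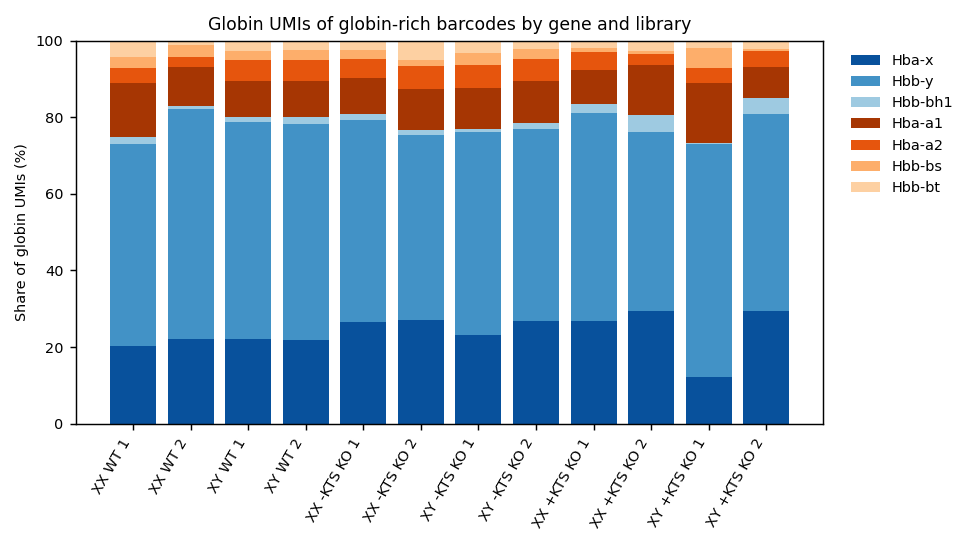
Share of globin UMIs (%, vertical axis) taken by each of the 7 genes in the globin-rich barcodes of each of the 12 libraries. Embryonic genes are in blue at the bottom and adult genes in orange on top, and the blue part covers 73.3% to 85.0% of each bar.

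Hbb-y, which encodes the embryonic beta-type chain epsilon-y, was the most abundant globin in all 12 libraries. Its share of globin UMIs was 52.8%, 60.1%, 56.7% and 56.5% in XX WT replicates 1 and 2 and XY WT replicates 1 and 2. In the same order it was 52.9%, 48.3%, 52.9% and 50.2% in -KTS KO, and 54.3%, 46.9%, 60.6% and 51.3% in +KTS KO. The genotypes overlapped, and the highest and the lowest values were both in +KTS KO.

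Hba-x encodes zeta globin, the embryonic alpha-type chain. It held 20.3%, 22.1%, 22.1% and 21.7% of globin UMIs in WT and 26.6%, 27.1%, 23.2% and 26.9% in -KTS KO. In +KTS KO it held 26.8%, 29.3%, 12.3% and 29.5%. The 4 -KTS KO libraries lay above the 4 WT libraries, and the +KTS KO libraries lay above them too except XY +KTS KO replicate 1, which was the lowest of all. This order holds for shares of the globin total over all globin-rich barcodes, and -KTS KO and WT overlapped within classes of barcodes. Within the limits on genes and mitochondrial UMIs, Hba-x held 22.1% to 24.3% in WT and 23.7% to 27.8% in -KTS KO. In barcodes with fewer than 1000 genes it held 17.1% to 19.8% in WT and 17.4% to 24.2% in -KTS KO. The edgeR fit over 6599 genes described further on called 0.121% of genes in -KTS KO. Hba-x had a log2 change of 0.11 (SE 0.20) there and was not called. That fit is of the level among all UMIs and not of the share of globin UMIs. Its barcodes were also chosen by their summed globin level, so the fit cannot decide on the order of the shares.

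Hbb-bh1, the other embryonic beta gene, was scarce. It held 1.72%, 0.898%, 1.18% and 1.78% of globin UMIs in WT, 1.38%, 1.15%, 0.923% and 1.51% in -KTS KO, and 2.37%, 4.45%, 0.399% and 4.22% in +KTS KO. Of the embryonic beta UMIs alone, it held 1.47% to 3.15% in WT and 1.72% to 2.92% in -KTS KO. XX +KTS KO replicates 1 and 2 had 4.19% and 8.67%, and XY +KTS KO replicates 1 and 2 had 0.653% and 7.60%. 3 of the +KTS KO libraries were thus above, and the remaining one below, every WT and -KTS KO library.

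Of the adult alpha genes, Hba-a1 was ahead of Hba-a2 in all 12 libraries. Hba-a1 held 14.3%, 10.1%, 9.55% and 9.45% of globin UMIs in WT, 9.41%, 10.9%, 10.7% and 10.9% in -KTS KO, and 8.93%, 12.9%, 15.7% and 8.13% in +KTS KO. Hba-a2 held 3.84%, 2.46%, 5.33% and 5.44% in WT, 5.09%, 5.90%, 5.97% and 5.95% in -KTS KO, and 4.57%, 3.11%, 3.92% and 4.25% in +KTS KO. As a share of adult alpha UMIs, Hba-a1 fell at 2 levels with nothing between them. It lay at 63.4% to 66.1% in 8 libraries and at 78.8%, 80.4%, 80.01% and 80.5% in XX WT replicates 1 and 2, XY +KTS KO replicate 1 and XX +KTS KO replicate 2. Of these 4 libraries 3 were XX, and 0 of the 4 -KTS KO libraries were at the higher level. No test was made of these levels.

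The adult beta genes Hbb-bs and Hbb-bt, sources of the adult beta chain, held far less of the beta RNA than Hbb-y did in all 12 libraries. Hbb-bs made up 2.80%, 3.36%, 2.51% and 2.61% of globin UMIs in WT, 2.20%, 1.62%, 3.16% and 2.43% in -KTS KO, and 1.15%, 0.690%, 5.18% and 0.429% in +KTS KO. Hbb-bt made up 4.27%, 1.01%, 2.65% and 2.52% in WT, 2.49%, 5.03%, 3.12% and 2.23% in -KTS KO, and 1.84%, 2.66%, 1.87% and 2.21% in +KTS KO. For Hbb-bs, 3 of the 4 +KTS KO libraries were below every other library and XY +KTS KO replicate 1 was above every other library. As a share of adult beta UMIs, Hbb-bs ran from 16.2% in XY +KTS KO replicate 2 to 76.8% in XX WT replicate 2, with 46.9% to 52.1% in 5 libraries.

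Alpha-type RNA was scarcer than beta-type RNA. Alpha UMIs per beta UMI were 0.468 to 0.828 across libraries, below 1 in all 12. Within the alpha genes Hba-x held 38.5% to 70.4%, whereas Hbb-y and Hbb-bh1 together held 88.2% to 95.5% within the beta genes. The adult genes therefore had a larger part of the alpha than of the beta RNA in each library.

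The first comparison asks whether loss of either WT1 form went with a different ratio of embryonic to adult globin. It did not pass the test for either. The embryonic share was 79.5% ± 3.42 (SD, n = 4) in WT and 78.2% ± 1.90 (SD, n = 4) in -KTS KO, a difference of -1.23 points (two-sided exact permutation test, p = 0.571, adjusted p = 0.914). In +KTS KO it was 80.6% ± 5.18 (SD, n = 4), or 1.16 points above WT (exact permutation test, p = 0.686, adjusted p = 0.914), with the same WT libraries as control. Between the sexes it was 79.0% ± 3.84 (SD, n = 6) in XY and 79.9% ± 3.499 (SD, n = 6) in XX (exact permutation test, p = 0.660, adjusted p = 0.914). The smallest p these designs allow is 0.0286 for 4 against 4 libraries and 0.00216 for 6 against 6, before adjustment. Once adjusted, a genotype test at 0.0286 could not pass unless several other tests of the family were as low. The adjusted p of a genotype test therefore cannot decide whether the genotypes differ, and the unadjusted p is given beside it.

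**Figure D2:**
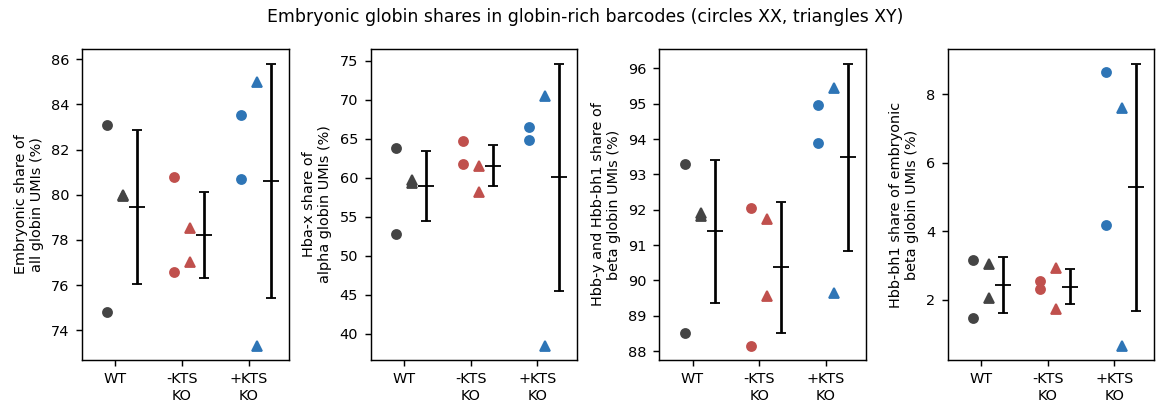
Embryonic shares (%, vertical axes, which do not start at 0) in globin-rich barcodes by genotype. Each point is a library (circles XX, triangles XY) and the bars give mean and SD of 4 libraries. The 3 genotypes overlap in each panel, and XY +KTS KO replicate 1 is the low triangle of +KTS KO, at 38.5% for Hba-x and 0.653% for Hbb-bh1.

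The other 9 of the 12 tests of composition did not pass either, with adjusted p from 0.914 to 0.971. For the genotype tests among them these adjusted values cannot decide on a difference, for the reason given above. For Hba-x as a share of alpha UMIs, -KTS KO had 61.5% ± 2.65 (SD, n = 4) and WT 58.9% ± 4.52 (SD, n = 4). In +KTS KO it was 60.1% ± 14.6 (SD, n = 4), a spread over 3 times that of WT. For Hbb-bh1 as a share of embryonic beta UMIs, WT had 2.43% ± 0.810 (SD, n = 4), -KTS KO 2.38% ± 0.506 (SD, n = 4) and +KTS KO 5.28% ± 3.63 (SD, n = 4). That last difference from WT, 2.85 points, had the lowest unadjusted p of the family (exact permutation test, p = 0.229).

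UMIs were then summed over the globin-rich barcodes of each library and fitted across 6599 genes with edgeR. In such sums, fewer cells of a type and less RNA per cell cannot be told apart. The barcodes in them were chosen by the summed level of the same 7 genes, so the fitted levels of the members are not independent of that choice. In -KTS KO against WT 0 of the 7 globin genes were called at an FDR of 0.05, where 0.121% of all genes tested were. In +KTS KO 0 of 7 were called, where 0.0606% of all genes were. The fitted log2 changes of the members ran from -0.43 (Hbb-bs, SE 0.53) to 0.29 (Hba-a2, SE 0.22) in -KTS KO and from -1.005 (Hbb-bs, SE 0.54) to 0.58 (Hbb-bh1, SE 0.47) in +KTS KO. Hbb-y had -0.30 (SE 0.20) in -KTS KO and -0.38 (SE 0.20) in +KTS KO, and Hba-x had -0.19 (SE 0.20) in +KTS KO. Hbb-bs, with the largest fitted change, had an adjusted p of 0.925 in -KTS KO and 0.638 in +KTS KO.

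In +KTS KO the call on Hbb-bs changed with the filter, and the fitted changes moved with single libraries. Without a filter on low counts, Hbb-bs had nearly the same log2 change, -1.05, over all 12 libraries, but with an SE of 0.26. Its edgeR FDR was then 0.00787, against an adjusted p of 0.638 with the filter. That fit called 166 of 17033 genes, against 4 of 6599 with the filter. Without XY +KTS KO replicate 1, the fitted log2 changes were -2.59 for Hbb-bs, 1.01 for Hbb-bh1 and -0.58 for Hbb-y. With that library kept and XY +KTS KO replicate 2 left out instead, Hbb-bh1 stood at -0.44 and Hbb-bs at -0.55. Replicate 1 stood apart from the other +KTS KO libraries in Hbb-bs, at 5.18% of globin UMIs against 0.429% to 1.15%. Leaving it out lowers the spread, and the remaining XY +KTS KO library is assumed to vary like the other groups. The barcodes were also chosen by the members, of which Hbb-y gave the most UMIs. These changes are therefore a description with no test. The division between Hbb-bs and Hbb-bt carries the uncertainty named above. The test of a difference in effect between the sexes called 0 of all 6599 genes for either genotype, and so 0 of the 7 members. The lowest p among the members was that of Hbb-bs in +KTS KO (log2 2.26, SE 1.08, FDR = 0.741).

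Genes of red cell biology were read from lists. In globin-rich barcodes, 0 genes of any list were called in either genotype, and the 4 other globins measured, 8 of heme synthesis, 12 of the red cell membrane, 11 of iron and globin handling, 8 erythroid transcription factors, 3 globin switch regulators and 7 of the cell cycle were tested. In -KTS KO the heme synthesis genes had a median log2 change of 0.16, against -0.01 for all genes, with 7 of 8 above 0. Alas2, the first enzyme of heme synthesis in red cells, had 0.08 (SE 0.18). In +KTS KO the membrane genes had a median of -0.30 and the iron and globin handling genes -0.32, against 0.01 for all genes, with 0 of 12 and 0 of 11 above 0. The cell cycle genes went the other way, with a median of 0.35 and 5 of 7 above 0. Erythroid transcription factors had a median of 0.05, with 6 of 8 above 0. Slc4a1, the anion exchanger of the red cell membrane, stood at -0.31 (SE 0.22), Epb42, a protein of the membrane skeleton, at -0.46 (SE 0.20) and Bpgm, which makes 2,3-bisphosphoglycerate, at -0.56 (SE 0.25), none of them called. Klf1, an activator of adult beta globin, had 0.21 (SE 0.22) in -KTS KO and 0.06 (SE 0.22) in +KTS KO.

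The genes that were called in globin-rich barcodes were few and depended on the setting. In -KTS KO, Akr1cl, Wnt6, Cst9, Ldhb, Kctd14, Aplp2, Sat2 and 2010204K13Rik were lower than in WT. In +KTS KO, Cst9 and Spp1 were lower, and Cyp11a1, the enzyme that opens steroid synthesis, and Eif3j2 were higher. These fits average the sexes, and in WT both Cst9 and Spp1 were mostly found in XY. Cst9 had 33.37 and 41.85 CPM in XY WT and 2.23 and 1.56 CPM in XX WT. Spp1 had 13.44 and 19.76 CPM in XY WT and 0.37 and 2.49 CPM in XX WT. The 8 calls in -KTS KO became fewer whichever library was left out. At a share of 50% for the globin-rich set 0 of 5237 genes were called in either genotype. An unadjusted edgeR p under 0.05 was found there for 249 genes (4.75%) in -KTS KO and 579 (11.1%) in +KTS KO. With the UMIs on the 7 globins left out of the totals, 8 of these 11 genes had more CPM in other cells than in globin-rich barcodes in 12 of 12 libraries (72.7%), where 51.4% of all 6592 genes tested besides those 7 did. Aplp2 did in 11 of 12, Cyp11a1 in 10 and Eif3j2 in 2. Kctd14, for example, had a median of 230 CPM in globin-rich barcodes and 1155 CPM in other cells on that scale. This scale was added after the data were seen, and the part of RNA from other cells in these calls was not tested.

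Within a library, the globins differed from barcode to barcode, and by gene to a different extent. Hbb-bs as a share of adult beta UMIs had an SD of 16.3 to 22.8 points over barcodes, 8.34 to 13.2 times the SD that binomial counting would give. For Hba-a1 as a share of adult alpha UMIs the SD was 1.77 to 5.19 points and 1.67 to 3.41 times the binomial one. Only barcodes with at least 100 UMIs on the pair entered. Hba-a1 was thus narrow around the level of its library, while Hbb-bs spread broadly in each library.

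**Figure D3:**
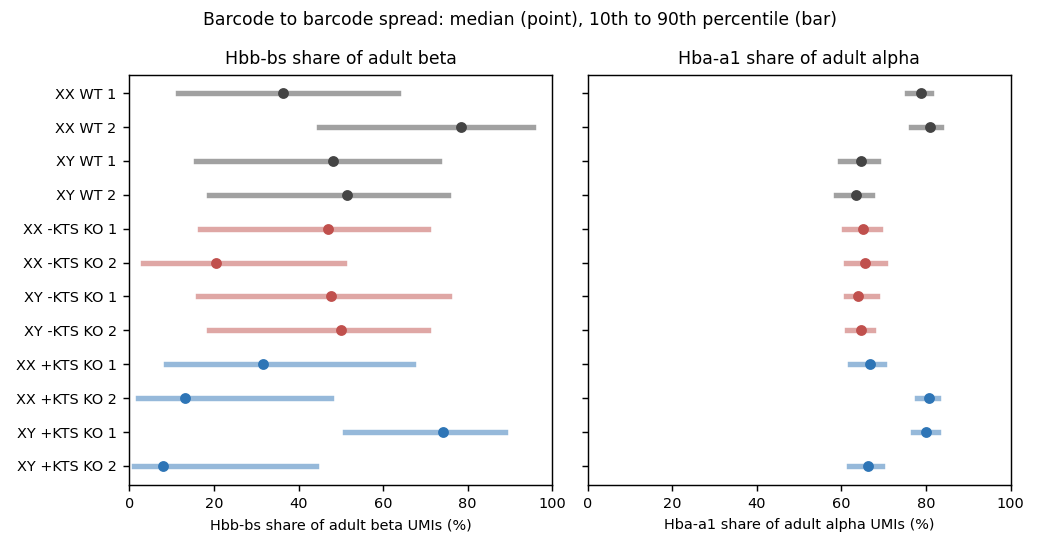
Spread over globin-rich barcodes in each library of the Hbb-bs share of adult beta UMIs (left, %) and the Hba-a1 share of adult alpha UMIs (right, %). Points are medians and bars run from the 10th to the 90th percentile, and the Hba-a1 bars form 2 narrow levels while those of Hbb-bs are wide.

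Globin-rich barcodes with more genes had more of the embryonic forms. Barcodes with at least 1000 genes had a higher embryonic share than those with fewer in 12 of 12 libraries, by a median of 4.03 points (2.04 to 6.64). For Hba-x as a share of alpha UMIs the difference was also above 0 in 12 of 12 libraries, with a median of 9.29 points (4.66 to 17.7), and for Hbb-bh1 as a share of embryonic beta UMIs in 12 of 12 with a median of 0.622 points. In XY -KTS KO replicate 2, where it was widest, Hba-x took 63.2% of alpha UMIs in barcodes with at least 1000 genes and 45.5% in the rest. For the embryonic share of beta UMIs it was above 0 in 11 of 12. This comparison was added after the data were seen and has no test. The number of genes found moves with the depth of a barcode, and the part of depth was not tested.

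**Figure D4:**
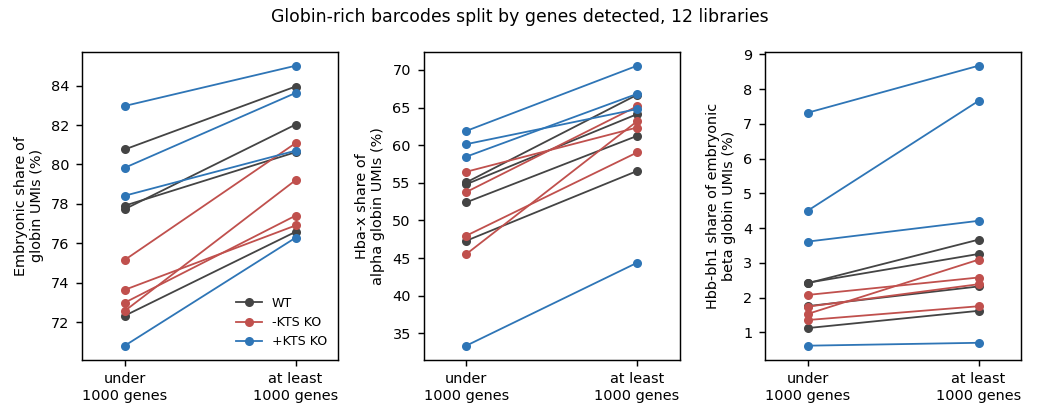
Embryonic share of all globin UMIs, Hba-x share of alpha UMIs and Hbb-bh1 share of embryonic beta UMIs (%, vertical axes, not from 0) in globin-rich barcodes with fewer than 1000 genes and with at least 1000 genes. Each line joins the 2 values of a library, and all 12 lines rise in each of the 3 panels.

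Nearly all globin-rich barcodes were of the embryonic kind. The median barcode held 73.8% to 85.0% of its globin UMIs on the embryonic genes. Only 2 barcodes had at least 50% of their beta UMIs on Hbb-bs and Hbb-bt, and both were in XY +KTS KO replicate 1. They held 3198 and 7508 globin UMIs, 0 of them embryonic, with 125 and 485 genes. In the other 11 libraries adult beta genes took at most 25.8% of the beta UMIs of any globin-rich barcode.

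Globin-rich barcodes themselves were fewer in -KTS KO, at 1.11% ± 0.366 (SD, n = 4) of barcodes against 1.97% ± 0.295 (SD, n = 4) in WT. The groups did not overlap and the exact permutation test gave p = 0.0286, the smallest this design allows. Among barcodes within the limits on genes and mitochondrial UMIs, however, the difference was -0.103 points (exact permutation test, p = 0.714). The share of globin-rich barcodes within both limits was 39.2% to 51.1% in WT and 55.4% to 81.8% in -KTS KO. In +KTS KO globin-rich barcodes were 2.38% ± 1.16 (SD, n = 4) of all, which did not differ from WT by the test (exact permutation test, p = 0.457). How much blood is carried along can depend on dissection, and the part of dissection was not tested.

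Globin RNA was also found outside the globin-rich barcodes. In other cells the 7 genes together had 411, 1194, 1570 and 2104 CPM in WT (XX replicates 1 and 2, XY replicates 1 and 2). They had 159, 1416, 545 and 125 CPM in -KTS KO and 2075, 134, 631 and 394 CPM in +KTS KO. The range within each genotype was wide, and the 3 genotypes overlapped. Hbb-y led in all 12 libraries, with 47.1 to 1270 CPM, and Hbb-bs reached at most 56.5 CPM. Of other cells with at least 5000 UMIs, thinned to that number, 35.6% to 95.8% had at least 1 globin UMI. This left out 213 to 1792 shallower cells per library. Of all other cells, unthinned, 72.2% to 99.9% had one. Red cell markers were found in at most 0.444% of other cells in each library. The share with a globin UMI cannot tell RNA made in a cell from RNA that reached its droplet. The part of each was not tested.

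Much of this signal sat in few barcodes. The 307 barcodes with 1% to 30% of their UMIs on the globins were 0.373% of other cells and held 67.2% of the globin UMIs there, from 0% in XX -KTS KO replicate 1 and XX +KTS KO replicate 2 to 89.3% in XX -KTS KO replicate 2. In other cells with under 1% the CPM were 349, 770, 279 and 530 in WT, 159, 152, 212 and 97.1 in -KTS KO, and 305, 134, 308 and 299 in +KTS KO. All 4 -KTS KO libraries were then below all 4 WT libraries. In XY -KTS KO replicate 2 a single barcode with 2772 globin UMIs, 4 of them embryonic, held 19.6% of the globin UMIs of other cells, and the embryonic share of these cells was 55.9% with barcodes of 1% to 30% and 71.3% without.

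**Figure D5:**
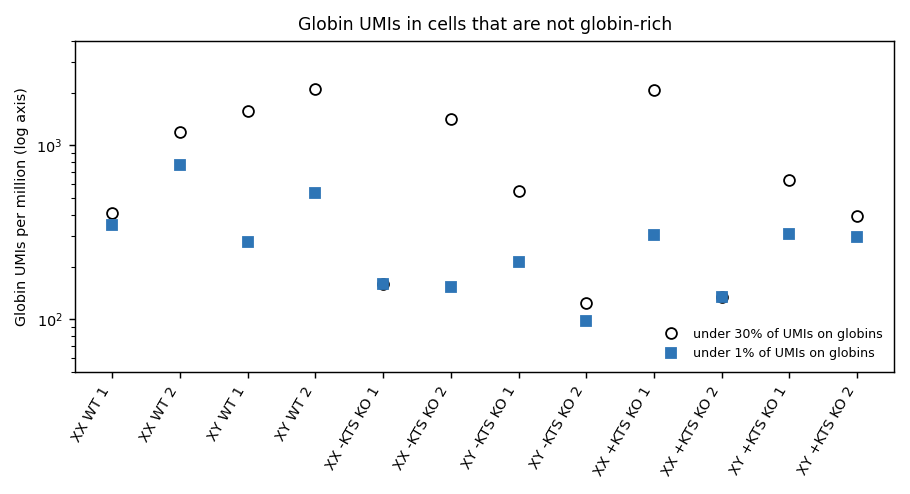
CPM of the 7 globins together (log axis) in the other cells of each library, for all of them (under 30% of UMIs on globins, open circles) and for those under 1% (blue squares). In XX +KTS KO replicate 2 and XX -KTS KO replicate 1 both marks coincide, while in XX -KTS KO replicate 2 they lie at 1416 and 152.

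Summed as log2 CPM, the background in other cells was 10.14 ± 1.03 (SD, n = 4) in WT, 8.46 ± 1.63 (SD, n = 4) in -KTS KO and 9.001 ± 1.64 (SD, n = 4) in +KTS KO. The differences of -1.68 and -1.14 from WT did not pass the exact permutation test (p = 0.171 and p = 0.286). With only cells under 1% the -KTS KO difference was -1.58. These cells were kept by their own globin share, which removed 0% to 89.3% of the globin UMIs by library, so that levels in them are given as a description with no test. In the edgeR fit of all other cells, 0 of the 7 members were called in -KTS KO, where 18.9% of 19110 genes were, and 0 of 7 in +KTS KO, where 11.1% were. In cells under 1%, the fitted log2 changes in -KTS KO were -1.49 for Hba-a1, -1.78 for Hbb-y, -1.26 for Hba-x and -1.69 to -0.74 for the other 4 members.

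The makeup of the background was near that of the globin-rich barcodes in some libraries and apart from it in others. Hbb-bs took 73.4% of adult beta UMIs in other cells of XY +KTS KO replicate 1 and 78.9% in those of XX WT replicate 2, against 73.5% and 76.8% in their globin-rich barcodes. It was at 27.9% against 16.2% in XY +KTS KO replicate 2, at 62.5% against 52.1% in XY -KTS KO replicate 2 and at 42.3% against 50.3% in XY -KTS KO replicate 1. The embryonic share was lower in other cells in 7 of 12 libraries, with a mean difference of -2.41 points (SD 6.53, sign flip permutation test, p = 0.126) and a median of -0.44. Without XY -KTS KO replicate 2, which differed by -22.6 points, the mean was -0.57 (sign flip permutation test, p = 0.252). In cells under 1% it was lower in 12 of 12 libraries, with a median difference of -1.85 points and a mean of -2.38, as a description with no test. Hba-a1 as a share of adult alpha UMIs was also lower there in 12 of 12, with a median difference of -6.85 points. The division between Hba-a1 and Hba-a2 carries the uncertainty named above.

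Immune, endothelial and germ cells did not differ from gonadal somatic cells by the test when all other cells entered, and other kinds of cell were not tested. Gonadal somatic cells, the reference, had 104 to 1209 CPM of globins by library. The log2 difference from them was -0.39 in immune cells (9 libraries, higher in 2, adjusted p = 0.305), 0.03 in endothelial cells (12 libraries, higher in 3, adjusted p = 0.949) and -0.16 in germ cells (12 libraries, higher in 4, adjusted p = 0.730), all by sign flip permutation tests. Under 1%, germ cells were lower in 12 of 12 libraries, with a mean log2 difference of -0.50. Germ cells were deep, with a median of 28875 UMIs in XX WT replicate 1 against 12093 in gonadal somatic cells. After thinning to 5000 UMIs the difference under 1% was -0.48, again lower in 12 of 12, and that over all other cells was -0.03. Thinning keeps the expected globin share of each cell, so these values cannot decide on the part of depth, which was not tested.

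No relation was detected between the part of a library's UMIs in globin-rich barcodes and the globin level in its other cells. Over 12 libraries, Pearson's r was 0.105 (permutation p = 0.745) and Spearman's rho -0.028 (permutation p = 0.938) between the log2 values. Without XX +KTS KO replicate 1 and XY +KTS KO replicate 2, the libraries farthest from the median of the first measure, r was -0.0909. It was 0.267 (permutation p = 0.404) in cells under 1%. With the share of barcodes in place of the share of UMIs r was 0.409 (permutation p = 0.190), and -0.0589 without the 2 libraries farthest from its median.

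Several genes of the lists were called in other cells, at an FDR of 0.05, where 18.9% of all genes tested were called in -KTS KO and 11.1% in +KTS KO. In -KTS KO, Cygb, which encodes cytoglobin, a globin of many tissues, had a log2 change of -2.60, and in +KTS KO of 1.20. The erythroid transcription factors Tal1 (-2.80), Gata1 (-1.36), Nfe2 (-0.97) and Lmo2 (-1.24) were lower in -KTS KO, and Tal1 was also lower in +KTS KO (-1.31) while Zfpm1, a partner of GATA factors, was higher (1.12). Tal1 and Lmo2 are also genes of endothelial cells, whose summed markers had 127 to 177 CPM in the other cells of -KTS KO and 196 to 252 CPM in WT, with no overlap, and 175 to 237 CPM in +KTS KO. Megakaryocyte markers had 11.2 to 38.8 CPM in -KTS KO, 15.5 to 29.3 in WT and 22.9 to 147 in +KTS KO. The part of these cells in the calls was not tested. Of 8 factors tested, 4 were called in -KTS KO, all of them lower, and the other 4 had changes above 0 and were not called. In +KTS KO 2 of 8 were called, and 4 of 8 had changes above 0. Of the heme synthesis genes 0 of 8 were called in either, and of the red cell membrane genes 1 of 12 in -KTS KO (Epb41, 0.44) and 2 of 12 in +KTS KO (Epb41, 0.50, and Icam4, -0.90). Of 8 globin switch regulators, Bcl11a, a repressor of embryonic globin genes, was higher in -KTS KO (0.96) and Myb, a factor of blood progenitors, was lower in +KTS KO (-1.25). Of 7 cell cycle genes, Mcm5 was lower in -KTS KO (-0.53), and Pcna (-0.46) and Ccnb1 (-0.63) were lower in +KTS KO. Both comparisons share their WT libraries.

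By the pattern of their levels over libraries, the genes nearest to the summed globins in other cells were AI413582 (Pearson's r = 0.759 over 12 libraries, log2 scale), Tgfb1 (0.750), Tmem248 (0.745), Dhrs7b (0.744) and Car2 (0.739), the last encoding a carbonic anhydrase that is abundant in red cells. They were the highest of 9983 genes ranked, followed by Ly6e, Arpc1b, Notch1, Cd2bp2 and Pold1 at 0.719 to 0.738. In cells under 1% the r of these 10 genes ran from 0.447 to 0.744, with 0.452 for Car2, 0.447 for Ly6e and 0.471 for Arpc1b. The points share library and depth, and no test was made.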

How the data were processed

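Gonads of 12 mouse libraries were dissociated with trypsin and run on a 10x Chromium instrument (kit v3 in the methods, v2 in the labels). The authors deposited unnormalized UMI counts per gene and barcode, which the submitters' processing notes credit to Cell Ranger 6.0 and mm10. Barcode filters of the study (1000 genes or more, no more than 10% mitochondrial UMIs) were applied to other cells, and 19470 barcodes fell in neither set. No doublet caller was run. For 40 symbols given to 2 features, the first was taken.

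UMIs were summed per library and set and fitted with edgeR 4.0.16 (R 4.3.3; TMM, filterByExpr, quasi-likelihood test over 6 groups, Benjamini-Hochberg adjustment, FDR 0.05), each mutant being compared with WT as the mean of both sexes. DESeq2 1.42.0 was an alternative. Values per library were compared by two-sided exact permutation tests, adjusted over 12 tests of composition and 3 of cell kinds, and paired values by sign flips. These ran in Python 3.11.15 (scipy 1.17.1, pandas 2.3.3, numpy 2.4.6). A barcode had the markers of a kind with at least 3 of its list. On simulated data of the globin-rich sums (6599 genes), 88.5% of 4-fold changes were recovered in -KTS KO and 95.5% in +KTS KO, with 3.28% and 4.98% of calls false. Of other cells (19110 genes), 96.5% and 95.5% were recovered, with 2.53% and 6.37% of calls false. The simulated spread between libraries was set alike for all genes and was not taken from the data. These values therefore do not say how often a change in a given member would be found.

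The named genes are the members, the lists given, and the 10 genes nearest to the summed members. Genes called in globin-rich barcodes, the 2 adult barcodes and the megakaryocyte barcodes were named after their values were seen. Members and lists were chosen with earlier results of these data known. A comparison of adult-beta and embryonic-beta barcodes was planned and could not be made, since it needed 5 barcodes of each kind in a library. Ahsp was not analysed here, and 1 result that the lists cover is not reported here. The alternatives were other shares for the globin-rich set, other cell filters, other normalizations, no filter on low counts, a replicate block and leaving out each library.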

Additional observations from a re-analysis of the deposited data

Results flagged for a closer look

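Values of single libraries that stood apart were sought in 85 groups of 4 to 10 libraries, with Dixon's test at its 95% level, which chance meets in about 1 of 20 groups. The part of stage, embryo or library in these values was not tested.

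XY +KTS KO replicate 1 stood apart in 4 measures of its globin-rich barcodes. Hba-x held 12.3% of its globin UMIs, where the other +KTS KO libraries had 26.8% to 29.5%, and Hbb-bs held 5.18%, where they had 0.429% to 1.15%. Hba-a1 held 15.7% of globin UMIs, against 8.13% to 10.9% in the other XY libraries, and 80.01% of adult alpha UMIs, against 63.4% to 65.7%. XY +KTS KO replicate 2 stood apart in Hbb-bh1, at 4.22% of globin UMIs against 0.399% to 1.78% in the other XY libraries, and at 7.60% of embryonic beta UMIs against 0.653% to 3.05%.

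XX WT replicate 1 was low in Hba-x, at 52.9% of alpha UMIs where the other XX libraries had 61.8% to 66.5%, and high in Hba-a1, at 14.3% of globin UMIs where the other WT libraries had 9.45% to 10.1%. Within -KTS KO, XX replicate 1 had 9.41% on Hba-a1 (others 10.7% to 10.9%) and 5.09% on Hba-a2 (others 5.90% to 5.97%). XY -KTS KO replicate 1 had 23.2% on Hba-x (others 26.6% to 27.1%). In other cells under 1%, XX +KTS KO replicate 2 had a log2 globin CPM of 7.06, where the other +KTS KO libraries had 8.22 to 8.26.

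The Hba-a1 share of adult alpha UMIs was lower in -KTS KO than in WT in XX and differed little in XY. The difference was -14.7 points in XX and 0.636 in XY, 15.4 points apart, with the libraries of each sex all on 1 side. In XY, WT had 64.2% and 63.4% and -KTS KO 64.2% and 64.6%, a shift smaller than the gap between the WT replicates. In XX, the WT libraries lay at the higher of the 2 levels given above, as did an XY and an XX +KTS KO library. The division between Hba-a1 and Hba-a2 is uncertain, as named above. The 15.4 points between the sexes were not tested. The edgeR test of a sex difference in the genotype effect on the level of Hba-a1 gave a log2 of 0.40 (SE 0.59, FDR = 0.986).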

How the results depend on the processing

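Depth limits the rare genes and the small sets: 45 globin-rich barcodes in XY -KTS KO replicate 2, and 4 libraries a genotype. For all results below, the cause of a change with the setting was not tested. Of 196 alternative fits of the members in globin-rich barcodes, 179 kept direction and call, 3 became called and 14 turned direction, and in other cells 186, 3 and 7 of 196 did. DESeq2 size factors in edgeR turned no member.

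With only barcodes of 1000 or more genes and no more than 10% mitochondrial UMIs, the difference in the share of barcodes that were globin-rich in -KTS KO was -0.103, that of Hba-x in alpha UMIs in +KTS KO was -0.520 and that of embryonic in beta UMIs between XY and XX was 0.189. The last was 0.0992 with medians over barcodes and 0.00915 with barcodes of fewer than 1000 genes. Medians gave 0.0987 for Hbb-bh1 in -KTS KO, and fewer than 1000 genes gave -1.46 for Hba-x in alpha UMIs there. In cells under 1%, which were kept by their own globin share, the log2 globin CPM in -KTS KO differed by -1.58, the embryonic share by -2.38, and immune, endothelial and germ cells by 0.11, -0.024 and -0.50. With 4 markers endothelial cells gave -0.081.

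Genes called in globin-rich barcodes in -KTS KO numbered 8, with 122 without a filter on low counts and 33 with DESeq2. From barcodes of at least 50%, 0 of 5237 were called (edgeR, 249 or 4.75% at an unadjusted p under 0.05). In +KTS KO the called genes numbered 4, with 1 at 20%, 166 without the filter and 14 with DESeq2. At 50%, 0 of 5237 were called there (edgeR, 579 or 11.1% at an unadjusted p under 0.05). In other cells DESeq2 called 3472 genes in +KTS KO and 4345 in -KTS KO. At 20% Hba-a1 had 0.0057 in -KTS KO and 0.13 in +KTS KO, and Hba-x 0.13 in +KTS KO. At 50%, Hba-x had -0.14 and Hbb-bt -0.19 in -KTS KO.

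Same-numbered libraries did not deviate together. Over 15 pairs of groups the correlation of their deviations ran from -0.104 to 0.220 in globin-rich barcodes and from -0.382 to 0.198 in other cells, with 5 and 4 pairs over 0.1. The replicate block gave 28 and 11 called genes in globin-rich barcodes. With the replicate block by sex, the difference in globin-rich barcodes in -KTS KO was -0.858 (sign flip permutation test, p = 0.125, the smallest 4 pairs can give). The block was added to this last test after the data were seen.

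Without each library in turn, the embryonic share differed by -2.77 to -0.0230 in -KTS KO, by -0.379 to 3.60 in +KTS KO and by -2.15 to 0.182 between XY and XX. Hba-x in alpha UMIs differed by -2.32 to 8.32 in +KTS KO, embryonic in beta UMIs by -0.885 to 0.502 between XY and XX, and Hbb-bh1 in embryonic beta UMIs by -0.372 to 0.187 in -KTS KO and -1.65 to 0.261 between XY and XX. The share of globin-rich barcodes in -KTS KO differed by -0.997 to -0.693 (exact permutation test, p = 0.0286 or 0.0571). Called genes in globin-rich barcodes ran from 1 to 6 in -KTS KO and from 1 to 499 in +KTS KO, the 499 being without XY +KTS KO replicate 1, and in other cells from 2290 to 3184 and from 693 (without XX WT replicate 1) to 2946. In globin-rich barcodes of -KTS KO, Hba-a1 ran from -0.39 to 0.061, Hbb-bh1 from -0.59 to 0.078 and Hbb-bt from -0.32 to 0.92. In those of +KTS KO, Hba-a1 ran from -0.63 to 0.094, Hbb-bh1 from -0.44 to 1.01 and Hbb-bt from -1.01 to 0.21. In other cells Hbb-bt ran from -1.52 to 0.36 in -KTS KO and Hbb-bh1 from -0.99 to 0.46 in +KTS KO.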

Other observations

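A few barcodes held adult globins and next to no embryonic ones. Of barcodes with at least 100 globin UMIs, 20 had under 10% of them on Hba-x, Hbb-y and Hbb-bh1. Some carried red cell markers, such as the barcode of XY WT replicate 2 with 1122 globin UMIs, 768 of them on Hbb-bs. In others nearly all globin UMIs were on Hba-a1. A barcode of XY -KTS KO replicate 1 had 234 UMIs on Hba-a1, 14 on Hba-a2, 1 on Hbb-y and 0 on the other 4 genes, with 0 Alas2 UMIs and 10 of Gata1, a factor of red cells and megakaryocytes.

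Barcodes with at least 3 megakaryocyte and platelet markers and under 30% globin UMIs numbered 172 in 12 libraries. Unlike other cells, they did not have to pass the limits on genes and mitochondrial UMIs. They held 2096 UMIs on Hba-a1, 209 on Hba-a2, 229 on Hba-x and 1325 on the beta genes. Hba-a1 had more CPM in them than in other cells in 10 of 12 libraries, the exceptions being XY WT replicate 1 (87.9 against 143 CPM) and XX -KTS KO replicate 2 (21.9 against 153 CPM), and than in other cells under 1% in 12 of 12. The ratio of Hba-a1 to beta UMIs was higher in 11 of 12 against either set. In 8 of them, from 6 libraries, Hba-a1 had at least 50 UMIs and at least 5 times the beta UMIs, and 3 such barcodes had fewer than 3 markers. These counts were made after the data were seen and were not tested.

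In the 19470 barcodes that were in neither set, globins had a higher CPM than in other cells in 12 of 12 libraries, by a ratio of 1.30 to 16.3 (median 6.67).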
